A study of Rattus norvegicus with 80 samples.

Results

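Of 9 mammary tumors from IFPS rats, 3 had a low level of the genes that mark cultured mammary epithelial cells (MECs), and 6 had a high level. The 3 are MSR2R4, MSR770 and MSR592, and the 6 are MSR304, MSR366, MSR224, MSR362, MSR2R2 and MSR687. They were chosen by that level itself, measured as the mean log2 level of MEC-enriched genes in these same libraries, among 80 RNA sequencing libraries in all. Every difference between the 3 and the 6 is therefore given as a description, without a test. IFPS is 1 of 3 rat lines mutated in Nf1, the others being IF and PS, and the labels do not spell these names out. The tumor groups hold 9 IFPS, 9 PS and 5 IF tumors. Normal tissue came from the 3 lines and from wildtype rats, and the IFPS groups hold 6 whole mammary pads and 3 libraries each of MECs, fibroblasts and adipocytes. Per the labels, pads and tumors were extracted fresh as whole tissue, whereas MECs and fibroblasts were grown in culture before extraction. The series calls the normal cell types flow sorted. Ages, treatments and the site of each tumor are not among the labels, nor is it stated whether MSR2R2 and MSR2R4 share an animal. The p-values below rest on the spread between libraries, pooled over all groups of a fit, and treat each library as independent.

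Nf1 encodes neurofibromin, a GTPase-activating protein that switches Ras off, so that its loss leaves Ras and the MAP kinase cascade more active. The mammary pad is a fat pad through which an epithelial ductal tree runs, with fibroblasts, vessels, nerves and immune cells around it. A tumor taken whole holds these tissues beside its own cells. In RNA from whole tissue, fewer cells of a type and less RNA per cell cannot be told apart.

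Cell types were followed through gene sets taken from the normal libraries of all lines. A gene entered the MEC-enriched, fibroblast-enriched or adipocyte-enriched set when its mean level was at least 4-fold above that in both other isolated cell types and at least 2 CPM, a gene's counts relative to its library's scaled total. This gave 689 MEC-enriched, 260 fibroblast-enriched and 861 adipocyte-enriched genes. A further 584 genes, called pad-only, were at least 4-fold higher in pads than in each of the 3 isolated cell types. A library's score is the mean log2 CPM over a set. The file pairs its identifiers with no gene names, so known markers such as keratins could not be used to check the labels, and "MEC-enriched" below means only what the normal libraries show. The 3 IF adipocyte libraries had higher MEC scores than the other adipocytes, 0.14 to 2.32, against -1.33 to -1.12 in IFPS, -1.34 to -1.28 in PS and -1.02 to -0.33 in wildtype adipocytes.

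The MEC score, which chose the 3 tumors, was -0.63 in MSR592, -0.01 in MSR770 and 1.43 in MSR2R4. It ran from 3.61 in MSR362 to 3.82 in MSR224 among the 6 others, so that MSR2R4 lay just inside the division and MSR362 just outside it, 2.18 apart. All 9 PS tumors lay between 3.58 and 4.01 and IFPS MECs reached 4.23. IFPS pads, with 2.38 at the lowest and a median of 2.94, were above all 3 low tumors. The score of MSR592 was under the range of cultured IFPS fibroblasts (-0.15 to 0.44), that of MSR770 was within it, and that of MSR2R4 was between fibroblasts and pads. With sets made without the IF adipocyte libraries the 3 scores were -0.49, 0.11 and 1.57, and the gap to the 6 was 2.07.

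The 3 tumors differed from each other in the other scores. The adipocyte score was 4.82 in MSR2R4 and 3.86 in MSR592, above the 2.37 to 3.29 of the 6 other tumors, but 1.98 in MSR770, below all of them. The MSR2R4 value was above every IFPS pad (3.97 to 4.35) and below IFPS adipocytes (5.57 to 5.77). The fibroblast score was 2.75 in MSR2R4 and 2.70 in MSR592, higher than in the 6 (1.60 to 2.58), and 1.97 in MSR770, within their range. Cultured IFPS fibroblasts had 5.05 to 5.21, so the fibroblast score of all 3 tumors was far closer to that of pads (2.70 to 3.02). The pad-only score was 2.89 in MSR2R4, 2.17 in MSR592 and 1.03 in MSR770, against 1.59 to 2.78 in the 6.

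**Figure D1:**
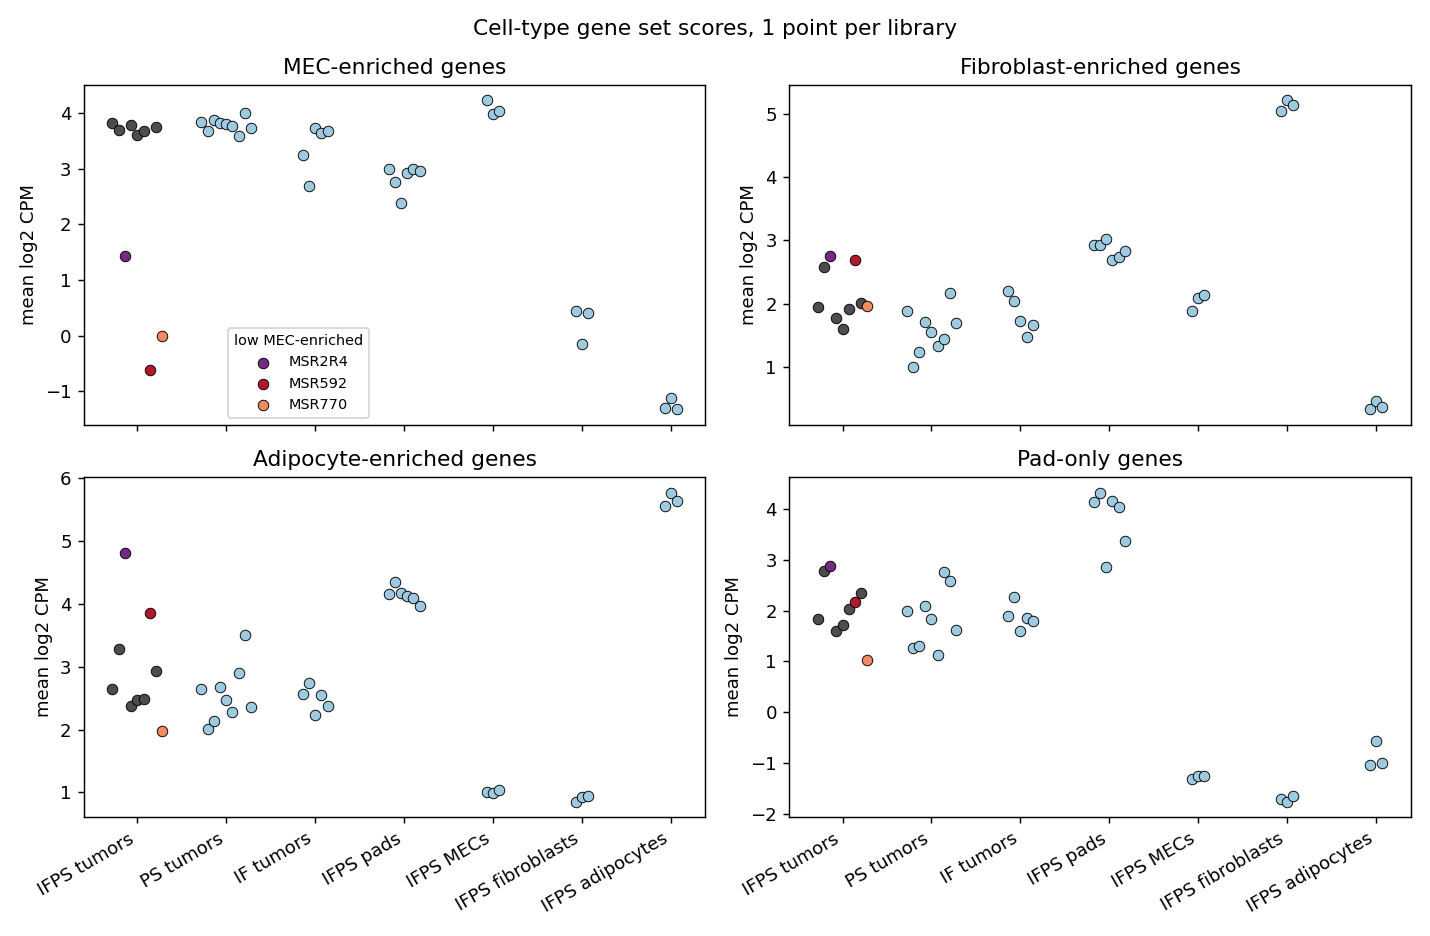
Mean log2 CPM over the genes of each set (y axes, 1 panel per set) in IFPS, PS and IF tumors and in IFPS pads, MECs, fibroblasts and adipocytes (x axis); each point is 1 library, the 3 low tumors are colored and the 6 other IFPS tumors are dark grey. The MEC panel shows the 3 low tumors at -0.63, -0.01 and 1.43 under every other tumor, and the adipocyte panel shows MSR2R4 at the top and MSR770 at the bottom of the IFPS tumors.

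Some other properties of the libraries moved with the division. Depth did so only in MSR592. The total counts were 18222634 in MSR592, 25909769 in MSR770 and 29331522 in MSR2R4, against 24649742 to 32353084 in the 6. Between 17612 and 18720 genes had a count in the 3, and between 19111 and 19684 in the 6. The 10 most abundant genes took 16.9% of the counts in MSR592, 12.2% in MSR2R4 and 9.09% in MSR770, more than the 5.41% to 8.74% of the 6. The scaling factor between libraries (TMM) was 0.872, 1.10 and 0.911 in MSR592, MSR770 and MSR2R4 and 1.19 to 1.33 in the 6. The part of these differences in the results was not tested.

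The lower level of MEC-enriched transcripts covered most of the set and was not of the same depth in the 3 tumors. The set chose these tumors, so its counts are a description. Of all 689 genes, 450 (65.3%) were at least 2-fold lower than the median of the 6 other tumors in all 3. In that median 604 genes were at 1 CPM or more, a limit that favors genes high in the 6. Of these 604, 434 (71.9%) were at least 2-fold lower in all 3. A further 89 were that much lower in 2 of the 3, 54 in 1 and 27 in 0. MSR2R4 had 503 of the 604 genes at least 2-fold lower, with a median difference of -2.97 on the log2 scale, and 132 of them under 1 CPM. MSR770 had 498 lower, with a median difference of -4.70 and 348 genes under 1 CPM. MSR592 had 533 lower, with a median difference of -4.94 and 360 genes under 1 CPM. MSR2R4 thus had most of these genes reduced but still counted, while MSR770 and MSR592 had 57.6% and 59.6% of them under 1 CPM. Only 7 of the 604 genes were within 2-fold of the median in all 3 tumors, and 70 were at least 2-fold higher in 1 or more of them (50 in MSR770, 27 in MSR2R4 and 18 in MSR592). In the whole set these counts were 22 and 103. Of all 17789 genes 19.0% in MSR2R4, 20.8% in MSR770 and 24.4% in MSR592 were at least 2-fold lower than the median.

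Set against the 6 IFPS pads, MEC-enriched genes were below every pad for 70.8% of the set in MSR2R4, 72.7% in MSR770 and 80.3% in MSR592, as a description of the set that chose these tumors. Of all 17789 genes 31.9%, 37.8% and 41.8% were below every pad in these tumors. In the 6 other tumors 8.85% to 13.9% of the set was below every pad, and 61.0% to 65.0% was above every pad.

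Adipocyte-enriched genes separated MSR770 from the other low tumors. For comparison, of all 17789 genes 19.8% in MSR2R4, 15.8% in MSR770 and 19.8% in MSR592 were at least 2-fold above the median of the 6, and 19.0%, 20.8% and 24.4% that much below. At least 2-fold above the median of the 6 were 63.2% of these genes in MSR2R4, 53.3% in MSR592 and 19.4% in MSR770, and 40.7% were that much lower in MSR770 against 5.46% in MSR2R4. In the 6 tumors themselves, which make up the median, 0.232% to 27.1% were that much higher, the top value being MSR2R2. In PS tumors the share above the same median ran from 3.95%, in MSR295, to 45.3%, in MSR536. Against pads, 54.0% of the adipocyte-enriched genes in MSR2R4 were above all 6 IFPS pads, 32.8% in MSR592 and 8.48% in MSR770, where all 17789 genes gave 31.5% in MSR2R4 and 31.3% in MSR592. The MSR592 share was thus near that of all genes.

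Fibroblast-enriched genes were split in each of the 3 tumors. In MSR2R4 49.2% were at least 2-fold above the median of the 6 and 21.5% that much below, in MSR592 46.2% and 28.8%, and in MSR770 37.3% and 32.7%. Pad-only genes were at least 2-fold higher for 44.2% in MSR2R4 and 45.7% in MSR592 and at least 2-fold lower for 18.8% and 23.5%. In MSR770 the order was turned, with 20.4% higher and 45.5% lower. PS tumors had 2.57% (MSR359) to 43.7% (MSR526) of pad-only genes above the same median, with 43.0% in MSR536. A high share of pad-only genes was thus not limited to low tumors.

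**Figure D2:**
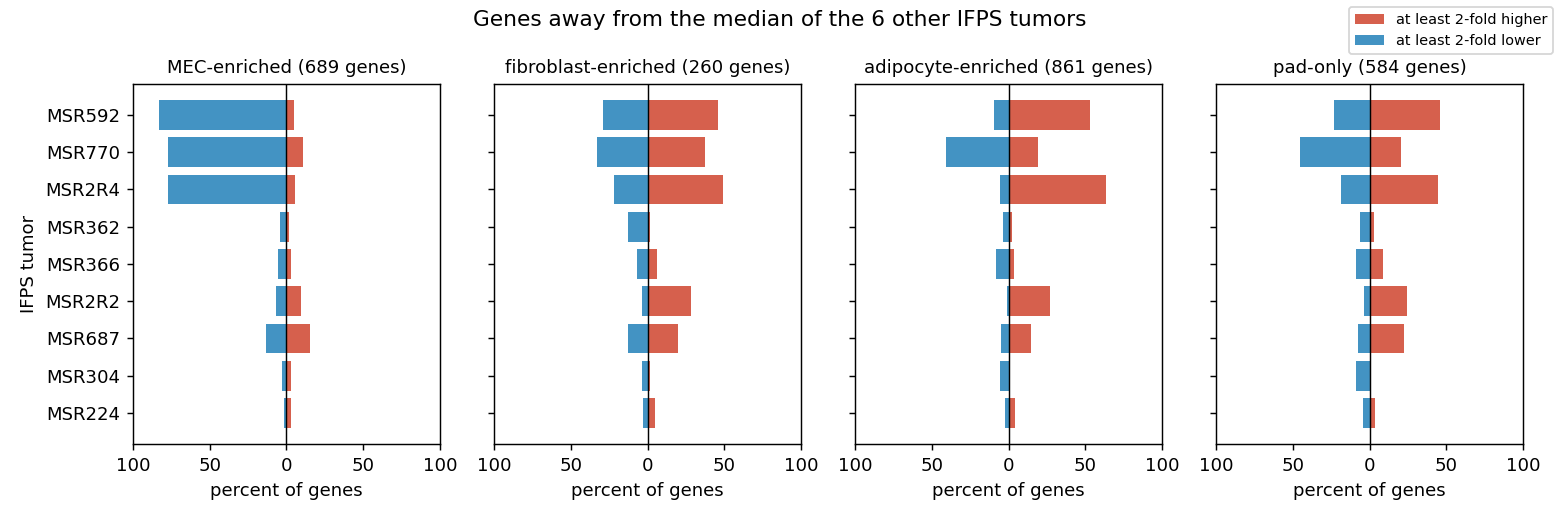
Percent of the genes of each set (x axis, 0 at the centre) that were at least 2-fold higher (red, right) or lower (blue, left) than the median of the 6 other IFPS tumors, for each IFPS tumor (y axis). The 3 tumors at the top had long blue bars for MEC-enriched genes, and MSR770 had 40.7% of adipocyte-enriched genes lower where MSR2R4 and MSR592 had 63.2% and 53.3% higher; the lower 6 tumors form the median themselves.

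Across all genes, the 3 and the 6 were compared by the difference of their medians. Of 15765 genes with enough counts, 845 (5.36% of the genes compared) were at least 2-fold higher in the 3 without overlap between the 3 and the 6, and 1612 (10.2%) were at least 2-fold lower. At least 4-fold apart were 436 higher and 1155 lower genes, and at least 16-fold apart were 68 and 504. The lower genes thus included more large differences than the higher ones. This follows in part from the choice of tumors, as the MEC-enriched set gave 442 lower and 5 higher genes. Lower genes could also enter through counts in the 6 alone, and higher genes through the 3 alone. Large differences outside that set were not counted apart. The median difference over all genes was -0.02 on the log2 scale.

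Most of the lower genes were not in the MEC-enriched set, which holds 654 of the 15765 genes compared. Of its 654 compared members 442 (67.6%) were lower and 5 higher, with a median difference of -3.85, as the division by these genes fixes. Another 1068 lower genes were in none of the 4 sets. They were 7.86% of the 13583 such genes compared, under the 10.2% of all genes. Of the 1612 lower genes 407 (25.2%, beside 18.3% of all genes compared) had a mean under 1 CPM in MECs. By the normal tissue with the highest mean, 44.8% of the lower genes were highest in pads and 40.6% in MECs, against 30.7% and 21.7% of all genes compared. Genes that were under 1 CPM in each of the 57 normal libraries made up 166 of the lower genes and 9 of the higher genes. These 166 were 21.8% of the 763 such genes compared, and since a gene entered with counts in only 1 of the sets, such genes could enter through the 6 alone.

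The higher genes belonged most often to fibroblasts by their highest normal mean (331 genes, 39.2%, against 22.4% of all genes compared). Adipocytes held the highest mean for 27.6% of them, pads for 26.7% and MECs for 6.51%. Of the fibroblast-enriched set 38 of 237 members were higher and 19 (8.02%) lower, where all genes gave 5.36% and 10.2%, with a median difference of 0.83 on the log2 scale. Of the adipocyte-enriched set 77 of 815 (9.45%) were higher and 22 (2.70%) lower, with a median difference of 0.95. For pad-only genes 48 of 561 (8.56%) were higher and 76 (13.5%) lower, at a median difference of 0.51, so that the counts and the median point in opposite directions, beside 5.36% and 10.2% of all genes.

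Leaving out any of the 3 low tumors raised the count of genes without overlap. Without MSR770 1935 genes were higher and 2607 lower, and without MSR2R4 1340 were higher and 2304 lower. Leaving out MSR592 gave 1184 higher and 1824 lower genes. Fewer low tumors make a lack of overlap easier to reach.

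PS tumors and IFPS pads did not enter the division and give further ranges to set the 3 tumors against. The genes were picked by the distance of the 3 from the 6 other tumors, whose profiles are close to PS tumors. Counts against PS tumors therefore follow in part from that choice. Counts against pads, of the 3 and of the 6, follow in part from it as well, and none of them is a test. Of the 845 higher genes, 662 (78.3%) were above all 9 PS tumors in each of the 3, beside 9.11% of all genes compared, and 212 (25.1%) were above all 6 IFPS pads, beside 8.33%. Among those 212 genes 99 (46.7%) had their highest normal mean in fibroblasts, beside 22.4% of all genes compared. Of the 1612 lower genes, 1222 (75.8%) were below all 9 PS tumors, beside 10.6% of all genes compared, and 934 (57.9%) below all 6 pads, beside 11.4%. Outside the MEC-enriched set 582 of 1170 lower genes (49.7%) were below all pads, beside 9.44% of the 15111 genes compared outside that set. The 6 other tumors were in turn above all pads for 804 of the 1612 lower genes (49.9%, beside 14.7% of all genes) and below all pads for 578 of the 845 higher genes (68.4%, beside 16.2%).

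As whole profiles the 3 tumors were less alike than the 6 were among themselves. Over 17789 genes, Spearman's correlation of log2 CPM was 0.906 between MSR2R4 and MSR592, 0.854 between MSR770 and MSR592, and 0.824 between MSR2R4 and MSR770. Between a low and another IFPS tumor it was 0.809 to 0.877, the highest being MSR2R4 with MSR2R2. Among the 6 it was 0.933 to 0.991. These are values across genes within pairs of libraries, and genes are not independent replicates. MSR592 was thus closer to each of the other low tumors than to any of the 6. MSR2R4 was less like MSR770 than like any of the 6 (0.850 to 0.877). MSR770 was in turn closer to MSR304, MSR366, MSR224 and MSR362 (0.826 to 0.838) than to MSR2R4. Over the 15765 genes of the 3 against 6 comparison, between 15.8% and 23.6% were at least 4-fold apart within a pair of low tumors, as against 0.641% to 6.02% in pairs of the 6.

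The nearest normal tissue was pads for MSR2R4 and MSR592 but fibroblasts for MSR770. MSR2R4 was closest to the mean of IFPS pads (0.946), then to adipocytes (0.892) and PS tumors (0.864). MSR592 was also closest to pads (0.882) and then to adipocytes (0.858), with MECs last (0.795). MSR770 was closest to cultured fibroblasts (0.861), then to pads (0.847) and MECs (0.841), with adipocytes last (0.799). In the 6 others the correlation was 0.822 to 0.858 with fibroblasts, 0.911 to 0.918 with pads and 0.863 to 0.907 with MECs. MSR770 was thus little above the 6 for fibroblasts, and below them for pads and MECs. All 6 other IFPS tumors were closest to the mean of PS tumors, at 0.943 to 0.988.

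**Figure D3:**
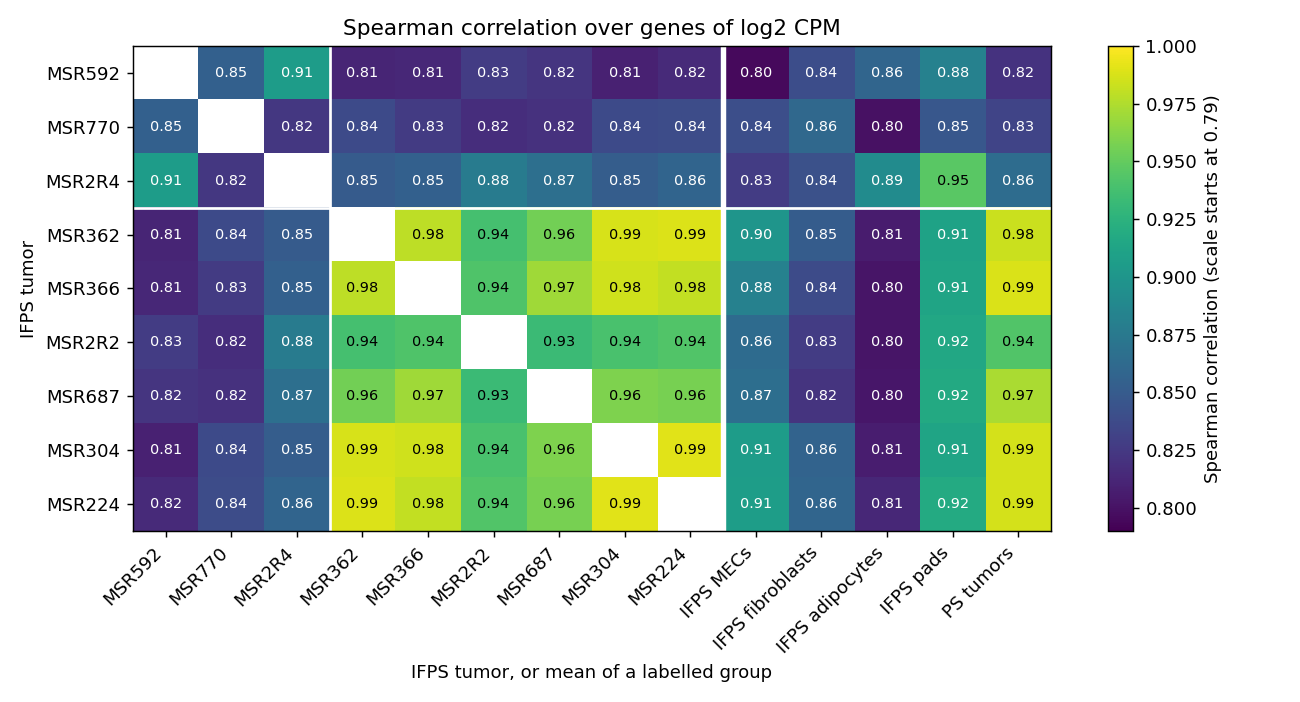
Spearman's correlation of log2 CPM over 17789 genes between IFPS tumors and with the means of IFPS MECs, fibroblasts, adipocytes and pads and of PS tumors (color scale from 0.79 to 1). The block of the 6 other tumors is at 0.933 or above, while pairs of the 3 low tumors range from 0.824 to 0.906 and MSR2R4 reaches 0.946 with pads.

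Genes high in a single tumor described each of the 3 more closely. Counted were genes at 2 CPM or more that were at least 4-fold above each of the other 8 IFPS tumors, among the same 17789 genes. MSR2R4 had 366 such genes, MSR770 361 and MSR592 185. MSR2R2, 1 of the 6, had 218, MSR687 had 55, and the other 4 tumors had 0 to 4. In the PS group, counted alike over 9 tumors, the highest count was 106. The number of genes therefore does not by itself set the 3 tumors apart from MSR2R2.

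Their makeup differed. In MSR2R4 45.4% of the 366 genes were adipocyte-enriched and 15.0% pad-only, where these sets are 4.84% and 3.28% of all genes counted, and 1.09% were under 1 CPM in all normal libraries. In MSR770 the largest share among these classes was that of genes under 1 CPM in all normal libraries, 58 genes or 16.1%, beside 10.4% of all genes counted. Its genes also included 25 MEC-enriched (6.93%, beside 3.87% of all genes counted) and 12 adipocyte-enriched genes (3.32%, beside 4.84%). In MSR592 14.6% were under 1 CPM in all normal libraries, 9.19% fibroblast-enriched and 9.19% adipocyte-enriched, where the fibroblast-enriched set is 1.46% of all genes counted. MSR2R2 had 11.9% under 1 CPM in all normal libraries and 9.63% pad-only, near MSR592 (8.65% pad-only), but 3.67% fibroblast-enriched and 2.29% adipocyte-enriched. Among PS tumors the highest adipocyte-enriched share was 27.7%, of 101 genes in MSR536. The highest pad-only share there was 53.8%, of 106 genes in MSR526. At least 4-fold below each of the other 8 tumors were 278 genes in MSR770, 129 in MSR592 and 27 in MSR2R4, and 0 to 2 in each of the 6.

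Genes under 1 CPM in all normal libraries also differed in number between the 3. Counted here were all 16916 such identifiers, of which only 1851 were among the 17789 genes used above. At 2 CPM or more were 118 of these genes in MSR770, 74 in MSR592 and 13 in MSR2R4. The 6 other tumors had 25 to 68, PS tumors 22 to 53 and IF tumors 43 to 105. MSR770 was above and MSR2R4 below all other tumors in this count.

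**Figure D4:**
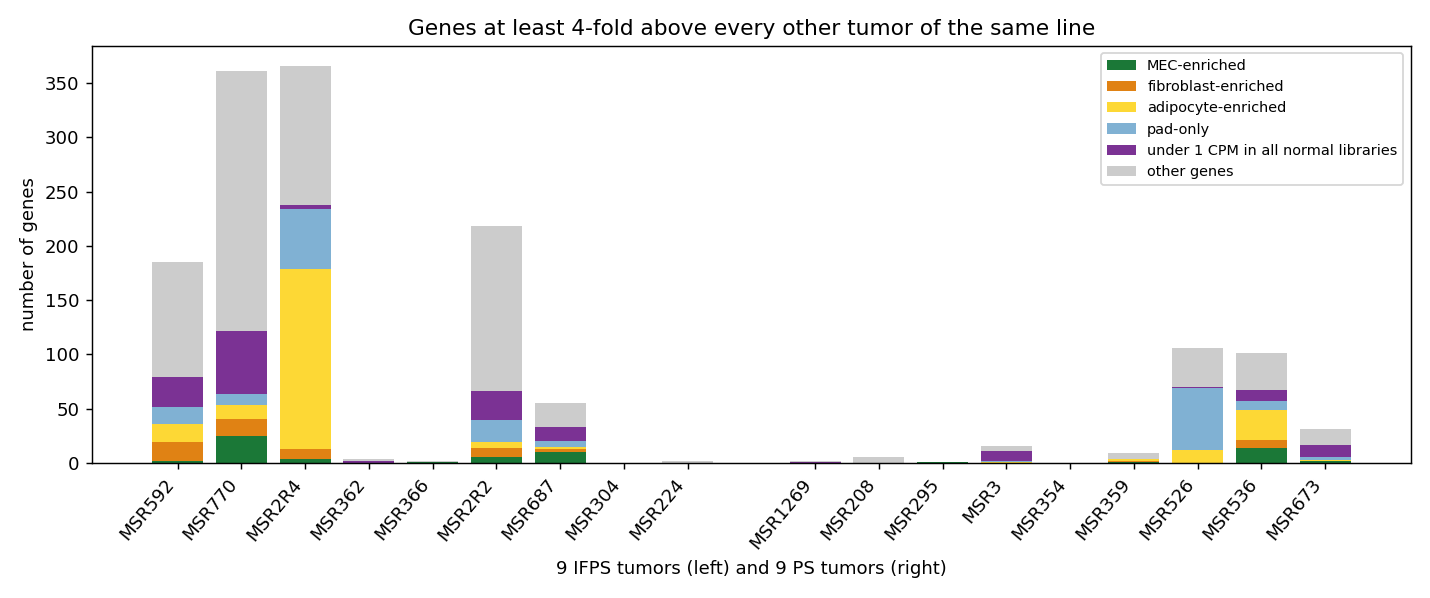
Number of genes (y axis) at 2 CPM or more and at least 4-fold above every other tumor of the same line, for the 9 IFPS tumors (left) and the 9 PS tumors (right), with colors for the gene set. MSR2R4 (366 genes) was mostly yellow for adipocyte-enriched genes among the colored classes, and MSR770 (361) and MSR592 (185) carried larger shares of genes under 1 CPM in all normal libraries (16.1% and 14.6%) than MSR2R4 (1.09%), though some tumors with fewer such genes, MSR687 among them, had higher shares.

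A total of 4 identifiers, 2 in each direction, show these differences in single genes. They were taken as the largest differences of the medians without overlap and belong to 4 different sets. ENSRNOG00000004089, an adipocyte-enriched gene, was at 493 CPM in MSR2R4, 337 CPM in MSR770 and 636 CPM in MSR592. In the 6 it ran from 3.74 to 10.1 CPM (median 5.69). The low tumors were above the pads (152 to 346 CPM) in 2 of 3 cases, and MSR770 was within their range although its adipocyte score was the lowest of the IFPS tumors. One IF tumor, MSR291, reached 599.9 CPM, while the highest PS tumor had 26.3 CPM.

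ENSRNOG00000014398, a fibroblast-enriched gene, was at 959 CPM in MSR592, 269 CPM in MSR2R4 and 20.2 CPM in MSR770. The 6 had 2.75 to 13.1 CPM (median 5.71), so that MSR770 lay just above them. MSR592 was above cultured IFPS fibroblasts, which had 132 to 326 CPM, and above the pads, which had 54.0 to 130 CPM (129.6 CPM at most).

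ENSRNOG00000060831, a MEC-enriched gene, was at 82.7 CPM in MSR2R4, 0.842 CPM in MSR770 and 0.252 CPM in MSR592, the last from 4 counts. The 6 had 842 to 6643 CPM (median 3028). The 2 lowest values were in the range of cultured fibroblasts (0.113 to 1.15 CPM). MSR2R4 was within the range of the pads (4.63 to 829 CPM).

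ENSRNOG00000013593, a pad-only gene, was at 16.2 CPM in MSR2R4 and had no count in MSR770 and MSR592, which allows up to 0.105 and 0.189 CPM at 3 counts. The 6 had 66.0 to 299.6 CPM (median 207). PS tumors spanned 4.64 to 431 CPM and IF tumors 0 to 0.363 CPM, so absence was not limited to the 2 IFPS tumors. In cultured IFPS MECs it was at 0.119 to 0.346 CPM, below the 7.28 to 28.8 CPM of pads.

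**Figure D5:**
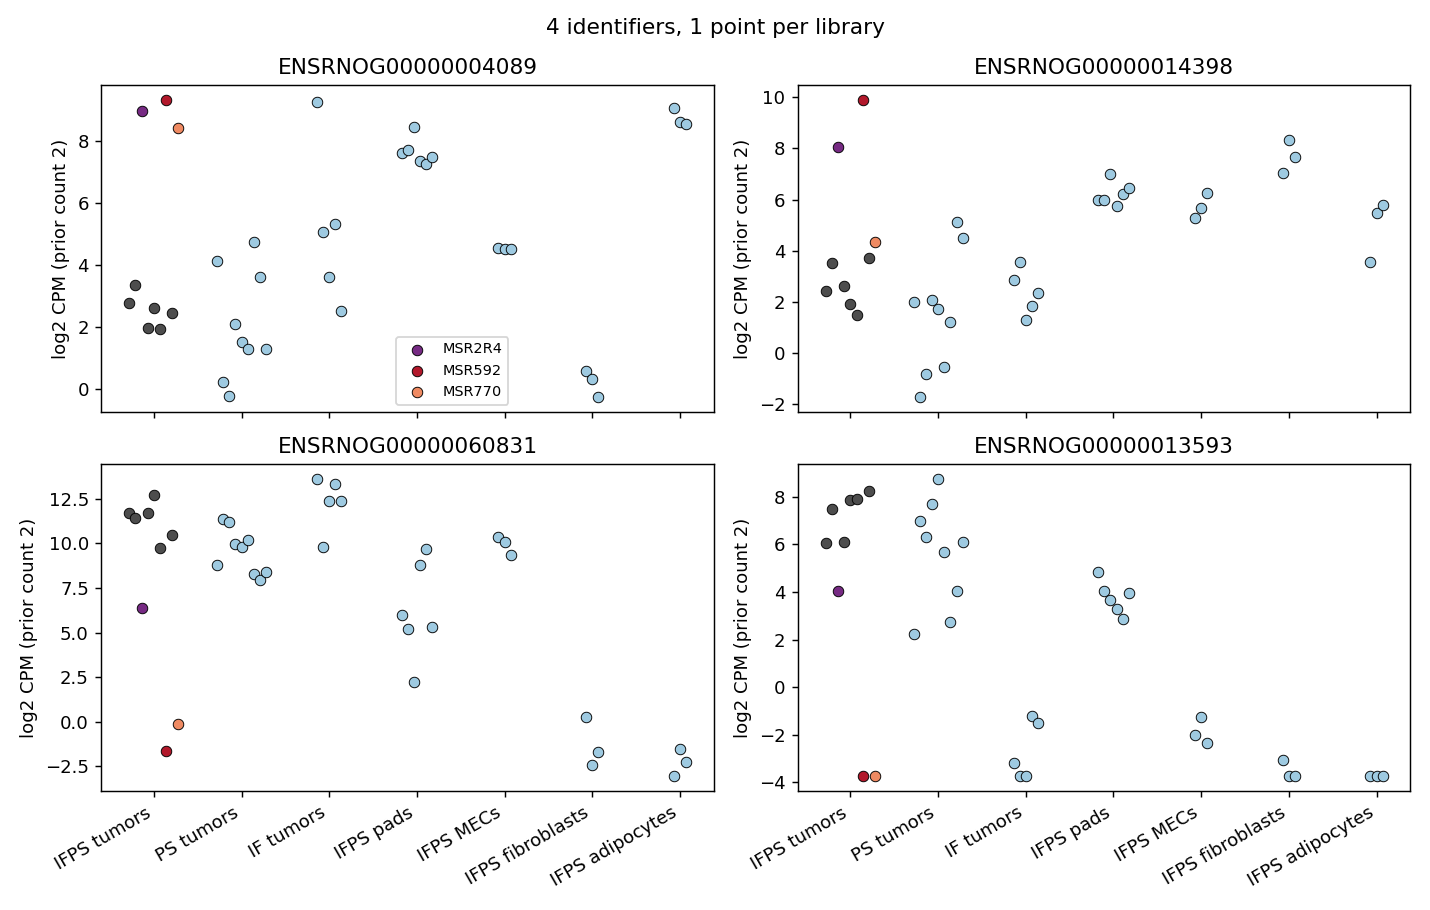
Level of 4 identifiers as log2 CPM with a prior count of 2 (y axes) in IFPS, PS and IF tumors and IFPS normal tissues (x axis); each point is 1 library, the 3 low tumors are colored and the 6 other IFPS tumors dark grey. The 3 low tumors were above the 6 in the upper panels and below them in the lower panels, with MSR592 and MSR770 at 0 counts for ENSRNOG00000013593, which the prior count places at -3.74.

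The 3 tumors widened the spread of their group. The median over 15765 genes of the standard deviation of log2 CPM was 0.617 in the 9 IFPS tumors (n = 9) and 0.299 in the 6 (n = 6). It was 0.360 in PS tumors (n = 9) and 0.246 in IFPS pads (n = 6).

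The comparison of IFPS tumors with IFPS pads is given by the labels. The 9 tumors differed from the 6 pads in 4797 of 17227 genes (27.8%) at an adjusted p-value under 0.05 by the quasi-likelihood test of edgeR, 2685 higher (15.6%) and 2112 lower (12.3%). MEC-enriched genes rose in 111 and fell in 27 of 669 members tested. Adipocyte-enriched genes rose in 81 and fell in 154 of 849, fibroblast-enriched genes rose in 23 and fell in 29 of 252, and pad-only genes rose in 13 and fell in 236 of 584. ENSRNOG00000013593 was higher in tumors by 3.01 ± 1.05 on the log2 scale (SE, adjusted p = 0.0301 in edgeR). That call was lost when any of 5 of the 6 pads was left out (adjusted p 0.0522 to 0.06), with only the 2 groups in the fit (0.121) and with pads 1 to 12 (0.144) or 13 to 21 (0.21) alone. ENSRNOG00000004089 did not pass in edgeR (-0.33 ± 1.01, adjusted p = 0.834). Without the 3 low tumors, in which it was high, ENSRNOG00000004089 was at -5.10. Both identifiers were picked by the difference between the 3 and the 6. Only genes with a mean of at least 3 log2 CPM over these 9 tumors could be picked. Values of these identifiers against pads, with all 9 tumors or with the 6 alone, follow in part from that choice. They and their adjusted p-values are not read as a test.

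Without the 3 low tumors the same comparison gave 8466 of 17099 genes (49.5%), 4198 higher (24.6%) and 4268 lower (25%). Of the 4797 genes called with all 9 tumors 4280 were called again, which is 89.2% of those and 50.6% of the 8466, and 4279 had the same direction. MEC-enriched genes then rose in 384 and fell in 37 of 669, and adipocyte-enriched genes rose in 95 and fell in 453 of 849. Fibroblast-enriched genes rose in 35 and fell in 99 of 252, and pad-only genes rose in 41 and fell in 357 of 584. Since the 3 tumors were left out for their MEC-enriched level, these counts describe the group and carry no separate evidence. The pads fall into those with title numbers 1 to 12 and 13 to 21. With the first alone the calls went from 1487 with all 9 tumors to 5727 without the 3, and with the second alone from 2328 to 6942.

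Between IFPS and PS tumors 0 of 15966 genes (0%) passed in edgeR, although 3521 had an unadjusted p under 0.05 and the smallest adjusted p was 0.0634. DESeq2, which by default replaces outlying counts in groups of this size, called 1173, of which 910 were higher in IFPS tumors. The part of that replacement in the calls was not tested. Without the 3 low tumors edgeR again called 0 of 15753, with 1458 genes at an unadjusted p under 0.05. When 1 of the 6 was left out in place of the 3, the count became 522 without MSR304, 676 without MSR366, 458 without MSR224, 540 without MSR362, 732 without MSR687 and 0 without MSR2R2. Without PS tumor MSR673 it was 1.

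Whether the same genes follow the MEC score elsewhere was tested in the 9 PS and 5 IF tumors, which the division did not use. Their scores ran from 2.69, in IF tumor MSR352, to 4.01, a narrower range than in IFPS tumors. With line as a factor, edgeR gave 263 of 15246 genes (1.73%) with a slope on the score at an adjusted p under 0.05, 60 rising (0.394%) and 203 falling (1.33%) with the score. MEC-enriched genes, which make the score, rose with it in 21 and fell in 3 of 650. Of the genes higher in the 3 IFPS tumors and outside that set, 0 rose and 6 fell of 783 tested, with a median slope of -0.39. Genes lower in the 3 and outside the set rose in 6 and fell in 7 of 1125, with a median slope of 0.66, against 0.01 over all genes tested. Of the 1612 lower genes 654 had their highest normal mean in MECs, but only 442 were in the set. This second list thus still holds genes of epithelial cells, which are tied to the score, so its slopes are not independent of it. Of the first list 0.766% fell and of the second 0.533% rose. DESeq2 called more, with 33 of the first list (7 rising and 26 falling, 0.894% and 3.32%) and 141 of the second (124 rising and 17 falling, 11% and 1.51%), against 3.65% rising and 3.96% falling over all genes. The share of the second list that rose with the score was thus near that of all genes in edgeR and above it in DESeq2. Without MSR352 0 genes passed, and without PS tumor MSR536 930 did, so the count rested on single tumors.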

How the data were processed

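The authors deposited raw counts, whole reads per gene, for 32883 rat Ensembl identifiers in 80 libraries. The submitters' processing notes name Trim Galore, STAR 2.5.2b and Rnor_6.0, and the annotation, counting tool and strand setting are not given in the sources used here. Of the identifiers 0 matched a gene symbol, so 29 symbol lists (15 of them cell type markers), the check of Nf1 and all sequences were not used here, and the naming rule gave 2 identifiers in each direction. Library totals of IFPS tumors ran from 18222634 to 32353084 counts.

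Levels are CPM with TMM factors from 17789 genes, with a prior count of 2 on the log2 scale. Genes of the 3 against 6 description passed filterByExpr with these sets as groups, so a gene needed counts in only 1 set. Tests used the quasi-likelihood method of edgeR 4.0.16 (R 4.3.3) with filterByExpr and Benjamini-Hochberg adjustment over all genes. Tumors and pads of IF, PS and IFPS shared 1 fit, and all 23 tumors another. DESeq2 1.42.0, RLE factors, no filter, other thresholds and left-out libraries were alternatives. The scripts were tested on simulated data. The tumors and gene lists were chosen with earlier results of these data known. Pad-only genes, genes little seen in normal tissue, genes high in 1 tumor and the comparisons with the ranges of pads and PS tumors were added after values were seen.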

Additional observations from a re-analysis of the deposited data

Results flagged for a closer look

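Among 6 IFPS pads, NF1Mam18 had a MEC score of 2.38, and the next pad had 2.77. This pad lay far from the other 5 (gap over range 0.628). A total of 36 groups and measures were checked in this way, of which chance flags about 1 in 20. The 3 low IFPS tumors remained below this pad.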

How the results depend on the processing

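IFPS tumors against IFPS pads gave 4797 genes, 8466 without the 3 low tumors, 2282 with only the 2 groups in the fit, 1487 with pads 1 to 12 and 2328 with pads 13 to 21. Leaving out 1 library gave 3854 to 6398. IFPS against PS tumors gave 0, 1173 by DESeq2, and 0 to 732 leaving out 1 tumor. The slope on the MEC score gave 263, 1160 by DESeq2, 170 with an 8-fold score, 0 in PS tumors alone, 0 without the 2 tumors farthest from the median score, and 0 to 930 leaving out 1 tumor. In the 3 against 6 description, a 4-fold limit gave 436 higher genes, and leaving out 1 tumor gave 832 to 1935 higher and 1588 to 2607 lower. The score gap was 2.44 with an 8-fold set and 2.07 without IF adipocytes. RLE factors moved the median difference of all genes from -0.02 to -0.04. For ENSRNOG00000014398 against pads the change of 0.84 ran from -0.93, without MSR592, to 1.06, without pad NF1Mam18, when 1 library was left out, and reversed to -0.97 with DESeq2, -3.48 without the 3 low tumors, and -3.38 and -3.59 without them in pads 1 to 12 and 13 to 21. The cause was not tested where an alternative did not leave out samples or genes. For the 4 identifiers, 75 of 96 tested values under alternatives kept direction and side of the threshold, and all 48 differences of the 3 against 6 kept direction, 43 of them within the spread between tumors. The sets without IF adipocytes and the pads split without the 3 tumors were chosen after seeing the data. No paired analysis was possible because the tumors carry no replicate numbers shared between groups.

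Identifiers without symbols, whole-tissue RNA, unstated strand and 3 tumors chosen by their own level limit what these values show.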
